A study of Mus musculus with 4 samples.

Results

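DNA-replicating stem and progenitor cells were examined within single-cell RNA profiles of hematopoietic stem and progenitor cells (HSPCs) from the bone marrow of young and aged mice. The word replicating refers to transcripts, since DNA content was not measured. The members were chosen by their own unique molecular identifier (UMI) counts. A cell was a member if it held at least 1 UMI for at least 8 of 11 genes of DNA replication (Uhrf1, Mcm3, Mcm5, Mcm6, Mcm7, Pcna, Gins2, Cdc6, Cdt1, Tipin, Dut) and for fewer than 5 of 10 genes of mitosis (Hmmr, Ube2c, Cdc20, Cenpf, Cenpa, Birc5, Top2a, Nusap1, Tpx2, Aurka). Only cells whose log total UMI count lay within 2 SD of the mean of their pool were considered. The rule selected 1259 of 14915 such cells (8.44%), out of 15566 barcodes in all. The pools are called young A, young B, aged A and aged B, and every list of 4 values below is in that order. The members numbered 545, 262, 177 and 275.

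All 4 pools came from C57BL/6-CD45.2 male mice without any transgene or treatment, and each pool mixed the marrow of 2 or 3 animals, so that no cell can be traced to its mouse. The young mice were labelled 2 months old and the aged mice 17 to 18 months old. In both ages the cells were sorted as lineage negative, Sca1 positive, Kit positive and Flt3 negative, a gate that holds long-term and short-term hematopoietic stem cells (HSCs) and multipotent progenitors. Pools A were processed on one sequencing platform (HalioDX) and pools B on another (TGML), each with 1 young and 1 aged pool, so the letter was used as a block. Per the study, young A and aged B were sequenced to fewer reads per cell than aged A and young B. Within each letter the ages thus differed in read depth, in opposite directions, which the block does not remove. The part of read depth in the results was not tested. With 2 pools per age, the smallest two-sided p that an exact permutation test can give is 0.333. The genetic background, the single sex and the sorting gate were shared by young and aged groups.

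Before a cell copies its DNA, the origin recognition complex, Cdc6 and Cdt1 load the ring-shaped Mcm helicase onto origins in G1 phase. Cyclin-dependent kinases then recruit Cdc45 and the GINS complex to start the fork, where Pcna clamps the polymerases and nucleotide enzymes such as ribonucleotide reductase supply the building blocks. Many of these genes are targets of E2F transcription factors, while genes of mitosis are turned on later, largely by complexes that bind the cell cycle genes homology region (CHR). Most HSCs are quiescent in adult marrow, and their progenitors divide more often.

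The gene groups of the rule differ in the sequence before their starts. The following windows are shown because they carry the short elements by which the E2F and CHR groups are known. They are stretches of RefSeq promoter windows (250 bases before to 50 bases after a transcript start, GRCm38.p6), printed 5′ to 3′ on the strand of the gene, with the matches in capitals. The letters searched on both strands were TTTCCCGC, TTTGGCGC, TTTCGCGC and TTTGCCGC for E2F and TTTGAA for CHR. Some E2F matches overlap each other on opposite strands.
Uhrf1, chr17:56304098-56304165, plus strand, within an intron of a longer annotated transcript: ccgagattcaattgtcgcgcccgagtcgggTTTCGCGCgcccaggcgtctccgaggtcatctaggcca
Mcm5, chr8:75109326-75109397, plus strand, upstream of the gene: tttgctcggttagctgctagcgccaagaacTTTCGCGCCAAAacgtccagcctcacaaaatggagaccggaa
Mcm6, chr1:128359715-128359845, minus strand, upstream of the gene: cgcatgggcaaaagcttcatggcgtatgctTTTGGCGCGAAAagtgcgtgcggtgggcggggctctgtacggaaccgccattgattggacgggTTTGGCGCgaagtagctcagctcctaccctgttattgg
Cdc6, chr11:98907983-98908050, plus strand, within the span of a longer annotated transcript and outside its exons: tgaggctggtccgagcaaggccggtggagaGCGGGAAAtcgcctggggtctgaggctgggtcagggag
Top2a, chr11:99024190-99024398, minus strand, upstream of the gene: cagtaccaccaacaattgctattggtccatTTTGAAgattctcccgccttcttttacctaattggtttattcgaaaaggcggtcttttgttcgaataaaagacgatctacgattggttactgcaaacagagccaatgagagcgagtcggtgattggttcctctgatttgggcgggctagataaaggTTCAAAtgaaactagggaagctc

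Among the 11 replication genes of the rule, 9 had a RefSeq window, and 7 of these 9 held an E2F match (Uhrf1, Mcm3, Mcm5, Mcm6, Mcm7, Cdc6, Cdt1) and 0 a CHR match. Among the 10 mitosis genes, 9 had a window, and 0 held an E2F match and 7 a CHR match. Over all 27025 genes with a window, 2.60% held an E2F match and 20.2% a CHR match. A smaller share of the other replication lists held an E2F match. Of the genes with a window, an E2F match was found in 4 of 16 for origin licensing and the helicase, 7 of 20 for polymerases and the fork, 0 of 14 for nucleotide supply, 6 of 13 for chromatin assembly and 4 of 19 for repair. A CHR match was found in 5, 2, 2, 4 and 1 of them. The site in Mcm5 begins 153 bases before the start, that in Uhrf1 185 bases before it, and Mcm6 has matches that begin at 110, 106 and 47 bases before it. The 2 CHR matches of Top2a, the topoisomerase that untangles sister chromosomes, begin 179 and 23 bases before its start. A match is a description of the letters and not evidence of binding. Gins2, Tipin and Tpx2 had no window.

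The members were among the deepest cells of each pool. Their median UMI counts were 10338, 10730.5, 9715 and 10251, against 5801.5, 5953.5, 5564 and 6510 in the other kept cells. Median genes detected were 3173, 2891, 3194 and 2870 in members and 2206, 1971, 2245 and 2103 in the others. A cell with more UMIs passes a rule of detected genes more easily, and growth toward division also raises RNA content, so depth and state cannot be told apart in these medians. The median mitochondrial share was 2.67%, 2.40%, 2.82% and 2.59% in members, below 3.12%, 2.79%, 3.36% and 3.08% in the others. Member UMIs summed to 5886149, 2961970, 1723943 and 3042637, of 42244876, 18744814, 23725289 and 37416508 in the pools. Between any 2 pools, 8 to 26 kept barcodes were shared.

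The sort markers were read first. Kit, the stem cell factor receptor of the gate, was measured at 83.4, 65.2, 140 and 59.5 CPM in members (CPM, the gene's count in the summed UMIs of a class and pool, scaled to a common total), and 45.5% to 72.9% of members held a Kit UMI. Ly6a, which encodes Sca1, was measured at 102, 169, 88.8 and 178 CPM. Flt3, whose product the gate excluded, was at 41.8, 13.5, 22.6 and 3.29 CPM, and 32.3%, 13.4%, 16.4% and 3.64% of members held a UMI for it. The label was also set against genes that the rule did not use. The uracil DNA glycosylase Ung, which removes uracil from newly copied DNA, was detected in 76.3%, 76.3%, 76.8% and 83.6% of members and in 11.9%, 11.2%, 6.44% and 6.75% of the other cells. The mitotic kinase Cdk1 was at 95.8, 94.2, 78.3 and 105 CPM in members, against 354, 348, 289 and 406 CPM in the mitotic cells, the kept cells with at least 5 of the 10 mitosis genes. In every pool Ung was thus found in a larger share of members than of other cells, and Cdk1 was lower in members than in mitotic cells. Both outcomes are tied to the rule, which chose members by detected replication genes and limited their mitosis genes. Members also held more UMIs than the other cells, which makes any gene easier to detect. These values are a description and not evidence for the label.

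Fewer of the aged than of the young HSPCs were members in these 4 pools. Members made up 10.5% of kept cells in young A (95% exact binomial interval 9.68% to 11.4%) and 11.7% in young B (10.4% to 13.1%), against 5.32% (4.58% to 6.14%) in aged A and 6.62% (5.88% to 7.42%) in aged B. These intervals cover counting error only. The mean was 11.1% ± 0.829 in young and 5.97% ± 0.920 in aged pools (SD, n = 2), a difference of -5.12 percentage points. The ages did not overlap, and the difference was -5.18 points within platform A and -5.06 within platform B. The exact permutation p was 0.333, the smallest that 2 pools against 2 allow. Mitotic cells made up 11.4%, 8.82%, 4.69% and 6.64% of the pools.

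**Figure D1:**
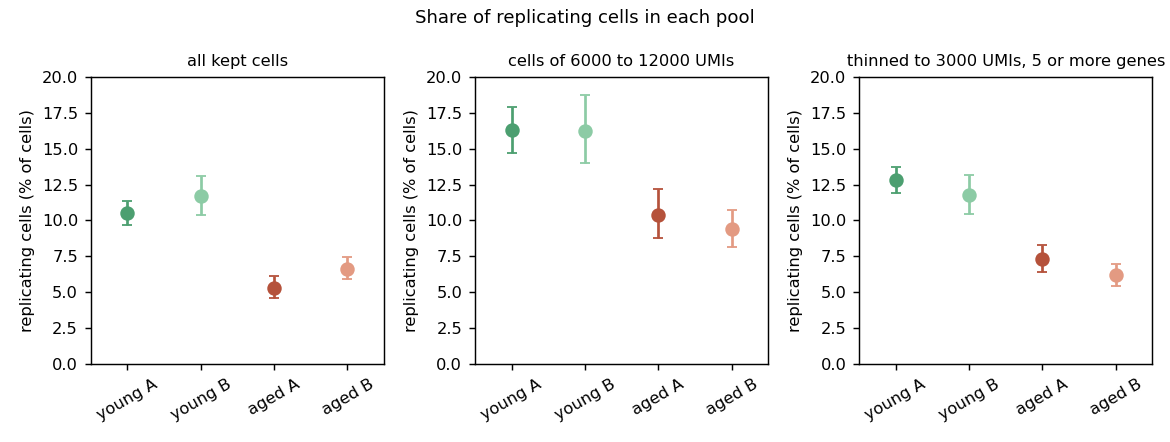
Share of cells (percent) that met the rule for replicating cells in each of the 4 pools, with 95% exact binomial intervals, for all kept cells, for cells of 6000 to 12000 UMIs and for cells thinned to 3000 UMIs under a rule of 5 genes. With all kept cells the young pools stand at 10.5% and 11.7% and the aged pools at 5.32% and 6.62%.

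The share depends on how many UMIs a cell has, so it was also read at matched depth. Among cells of 6000 to 12000 UMIs the members made up 16.3%, 16.3%, 10.4% and 9.37%. After every cell was thinned to 3000 UMIs, the rule of 8 genes left 56, 32, 28 and 20 members, or 1.08%, 1.46%, 0.888% and 0.482%. Thinning left out 0, 50, 176 and 4 shallower cells. A rule of 5 genes on the thinned cells, chosen after seeing the data, gave 12.8%, 11.8%, 7.30% and 6.17%. In each of these settings both young pools lay above both aged pools.

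The share was then read within cells that held marker UMIs of one lineage. A cell entered a set when it held UMIs for at least 3 of 8 marker genes of a lineage, or 4 of 12 for HSCs. The HSC set held most kept cells, 3772 of 5189, 1543 of 2244, 2914 of 3328 and 3578 of 4154, so its share largely restates that of the whole pool, and a cell could be in several sets. No background share was measured for these markers, so a set is a group of cells with marker UMIs and not a cell type. Among cells of the HSC set, 10.0%, 10.4%, 4.26% and 5.73% were members. In the megakaryocyte set the shares were 25.3%, 35.3%, 14.9% and 14.8%, and in the neutrophil set 20.6%, 23.7%, 13.3% and 18.6%. For each of these 3 sets both young pools lay above both aged pools. In the erythroid set the shares were 22.9%, 25.9%, 16% and 23.3%, and the ages overlapped. In the basophil and mast cell set they were 20.8%, 18.4%, 23.3% and 22.2%, with both aged pools above both young pools. With smaller marker sets the aged minus young difference for basophil and mast cells turned to -5.36 points. The T and innate lymphoid set and the B and plasma cell set held 1 to 41 cells per pool and 9 members in all. Over the 7 sets the exact permutation p ranged from 0.333 to 1 and the adjusted p from 0.583 to 1, so none passed. A set of detected markers also selects deep cells. At 6000 to 12000 UMIs, a setting chosen after seeing the data for these sets, the shares were 15.2%, 13.5%, 8.49% and 7.497% in the HSC set, 21.9%, 20%, 18.3% and 18.3% in the neutrophil set and 25.8%, 35.5%, 17.8% and 17.5% in the megakaryocyte set, with both young pools above both aged pools. In the erythroid set they were 19.4%, 24%, 25.7% and 26.3% and in the basophil and mast cell set 19.3%, 12.8%, 24.7% and 28.6%, so that both aged pools lay above both young pools. After thinning to 3000 UMIs, which left at most 7 members per pool in them, the HSC set had 0.308%, 1.06%, 0.335% and 0.10% and the megakaryocyte set 0.741%, 4.55%, 2.83% and 0%, and in both the ages overlapped. The thinned neutrophil set, with 10, 4, 4 and 1 members, had 1.61%, 1.92%, 1.41% and 1.18%, with both young pools above both aged pools.

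The genes of the rule are given as a description, since they chose the members. Mcm5, a helicase subunit (chr8:75109569-75128439, GENCODE vM21 on GRCm38), stood at 222, 205, 238 and 192 CPM in members, against 58.1, 43.2, 31.4 and 23.4 CPM in other cells. Uhrf1, which reads hemimethylated DNA behind the fork (chr17:56303321-56323486), stood at 113, 104, 135 and 97.9 CPM, against 22.9, 15.9, 15.5 and 8.83 CPM. Cdt1, the loading factor, stood at 120, 117, 113 and 127 CPM, against 26.8, 24.9, 15.1 and 14.4 CPM. Just outside the threshold, 228, 73, 66 and 79 cells held 7 replication genes. Hells, a gene outside the rule, averaged 78.0 CPM in them and 102 CPM in members with exactly 8, and Ung averaged 114 and 144 CPM. On the other edge, 59, 15, 12 and 32 members held 4 mitosis genes, and 54, 24, 9 and 13 cells with 8 or more replication genes held 5 and were left out. From 4 to 5 mitosis genes, Tk1 averaged 301 and 362 CPM, and Hells 190 and 145 CPM.

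Levels in members were then set beside those in all other kept cells of the same pool, as log2 differences of CPM + 1. These are descriptions with no test, because every gene of a cell is tied to the counts that chose it. Of 12678 genes described, 2731 (21.5%) were higher in members in all 4 pools and 4177 (32.9%) lower in all 4. At a log2 difference of at least 1 in all 4 pools, 101 genes (0.797%) were higher and 53 (0.418%) lower. Among cells of 6000 to 12000 UMIs, a setting chosen after seeing the data, 106 were higher and 29 lower, and 90 and 23 of these were among the 101 and 53. With mitotic cells left out of the other cells, also chosen after seeing the data, 267 were higher and 92 lower, and 101 and 43 of these were among the 101 and 53. Of the 53 lower genes, 4 were mitosis genes of the rule. Of the 101, 11 were the replication genes of the rule, 51 belonged to lists of replication, repair or G1/S genes and 36 to no list. Among those in no list were the centromere component Apitd1, the B-Myb gene Mybl2 and Tcf19. The 5 lists of replication and repair functions, without the genes of the rule, held 98 genes, of which 92 were higher in members in all 4 pools, 0 were lower in all 4, and 47 were higher by at least 1 in all 4. Their median difference was 1.25, against -0.09 over all genes described.

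The genes outside the rule with the largest difference present in every pool included enzymes of repair and fork work. Ung (chr5:114130386-114139323) stood at 173, 178, 164 and 195 CPM in members, against 28.1, 24.9, 13.7 and 13.1 CPM in other cells, with log2 differences of 2.58 to 3.79. Hells, a chromatin remodeler needed for DNA methylation (chr19:38930915-38971051), stood at 118, 121, 155 and 140 CPM, against 27.7, 27.4, 15.3 and 15.7 CPM. Among members the levels of Ung overlapped between the ages and those of Hells were higher in both aged pools, while among the other cells both genes were lower in both aged pools.
Lig1, which joins lagging-strand fragments, stood at 231, 239, 223 and 246 CPM, against 67.9, 64.6, 32.5 and 35.3 CPM. The checkpoint kinase Chek1 stood at 35.0, 32.4, 43.5 and 28.6 CPM, against 9.94, 8.58, 5.09 and 3.81 CPM. Dscc1, part of an alternative clamp loader that acts in sister chromatid cohesion, stood at 47.2, 47.6, 29.6 and 48.6 CPM, against 12.01, 9.82, 4.20 and 5.30 CPM. These again separated members from other cells in every pool and not young from aged members.
E2f1, the activator of the program, stood at 102, 15.2, 85.8 and 12.8 CPM in members, and so split by platform. The helicase subunit Mcm2 showed the same split, at 226, 112, 217 and 108 CPM, and Mcm4 at 107, 52.3, 150 and 51.3 CPM. Timeless, a fork protection factor and partner of Tipin, stood at 61.8, 42.9, 52.8 and 50.9 CPM. The differences between members and other cells of the same pool were at least 1 in both platforms for these 4 genes.

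**Figure D2:**
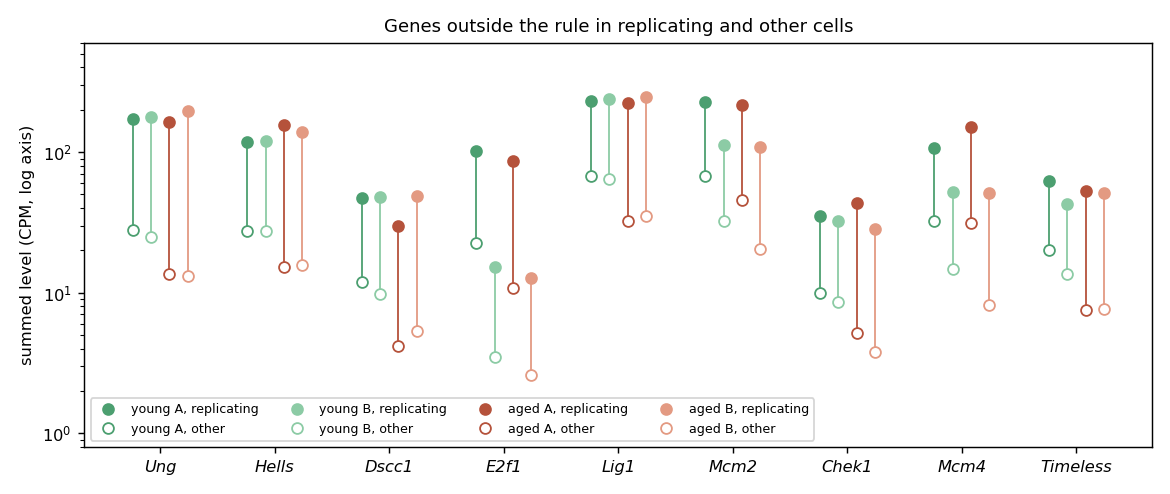
Summed level (CPM, log axis) of 9 of the 10 genes outside the rule with the largest difference present in every pool, one point per pool, in replicating and in other kept cells. For each gene the replicating cells lie above the other cells of the same pool, with Ung at 164 to 195 CPM against 13.1 to 28.1 CPM.

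By role, the lists compared as follows. Of 20 genes of origin licensing and the helicase, 17 were higher in all 4 pools and 11 by at least 1. Of 25 genes of polymerases and the fork, all 25 were higher and 13 by at least 1. Of 15 nucleotide supply genes, all 15 were higher and 8 by at least 1, and of 14 genes of chromatin assembly and methylation maintenance, all 14 were higher and 7 by at least 1. Of 24 genes of repair and checkpoints, 21 were higher and 8 by at least 1. Every replication role was thus represented, and no member of these lists was lower in all 4 pools. The 98 genes summed to 9668, 9280, 9865 and 9710 CPM in members and 5057, 4498, 3944 and 3721 CPM in other cells. In mitotic cells they summed to 8638, 8708, 8450 and 8259 CPM, so high sums were not particular to members.
Genes of G1/S control were mixed: 18 of 23 were higher and 3 lower in all 4 pools. Ccne2, a cyclin of S phase entry, stood at 29.6, 9.12, 44.1 and 12.2 CPM in members, against 6.45, 2.68, 3.78 and 1.36 CPM. Ccnd2, a cyclin of early G1, stood at 366, 404, 310 and 352 CPM, below 429, 462, 425 and 451 CPM in the other cells. Ccne2 was thus higher in members than in other cells of every pool, and Ccnd2 modestly lower.
Of 13 histone genes described, 1 was higher and 5 were lower in all 4 pools, with a median difference of -0.24. Over all genes described 21.5% were higher and 32.9% lower, so the histone genes that were lower are near that background. The linker histone Hist1h1b stood at 14.8, 15.9, 9.28 and 15.4 CPM in members, against 74.8, 92.0, 35.6 and 76.8 CPM in mitotic cells. Replication-dependent histone messages carry no poly(A) tail, which the assay captures, so these values do not measure total histone RNA. Of 5 inhibitors of cyclin-dependent kinases, 3 were lower in all 4 pools and 0 higher, against the same background. Of 18 mitosis genes outside the rule, 9 were lower in all 4 pools (32.9% over all genes), Mki67 among those that were not, at 22.6, 18.2, 32.5 and 22.7 CPM in members and 208, 201, 205 and 247 CPM in mitotic cells.

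Genes of HSC identity stood lower in members than in the other cells. Of 12 listed, 11 were lower in all 4 pools and 3 by at least 1, where 32.9% and 0.418% of all genes described were. The 12 genes summed to 836, 709, 1033 and 915 CPM in members and 749, 639, 986 and 716 CPM in mitotic cells. Low HSC levels were thus not particular to members. Procr, the endothelial protein C receptor that marks HSCs, stood at 41.1, 46.6, 67.9 and 66.4 CPM in members, against 107, 132, 197 and 214 CPM in other cells. Mllt3, a regulator of HSC maintenance, stood at 55.2, 47.3, 104 and 117 CPM, against 150, 136, 342 and 342 CPM. Both were lower in members within each age, and both were higher in aged than in young pools in either class. Of 10 interferon response genes, 9 were lower in all 4 pools, as were 10 of 12 immediate early genes, again beside 32.9% of all genes. In every pool both lists summed lower still in mitotic cells than in members. All 15 genes of ribosome biogenesis were higher in all 4 pools, beside 21.5% of all genes, each by less than 1 in at least 1 pool.

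Markers of mature lineages were summed in members as a check on other cell types. The 8 neutrophil genes summed to 2192, 2426, 4391 and 1634 CPM in members, against 1224, 1316, 1443 and 1514 CPM in other cells, with Mpo the most abundant in pools A and Prtn3 in pools B, and 3 of 7 described were higher by at least 1 in all 4 pools (0.797% of all genes described). The 8 erythroid genes, led by Car1, summed to 389, 234, 304 and 243 CPM in members, against 249, 140.4, 197 and 91.9 CPM in other cells. The 8 megakaryocyte genes, led by Pf4 and with Gp6 at 0, summed to 430, 431, 488 and 802 CPM, against 299, 233, 369 and 388 CPM. The sums of these 3 lists were thus higher in members than in other cells of every pool. In mitotic cells the erythroid genes summed to 406, 284, 846 and 335 CPM, above members in every pool. The megakaryocyte genes summed there to 367, 312, 976 and 1170 CPM, below members in both young pools and above them in both aged pools. The neutrophil genes summed there to 1528, 1555, 2356 and 1322 CPM, below members in every pool. The basophil and mast cell genes summed to 1720, 1502, 958 and 106 CPM in members and to 2158, 2361, 974 and 695 CPM in other cells. In members they were led by Prss34 in the young pools, Mcpt8 in aged A and Cpa3 in aged B, and so differed by a wide margin between aged pools A and B. The B and plasma cell genes summed to 64.2, 45.6, 147 and 55.2 CPM, against 124, 120.3, 641 and 178 CPM in other cells, and were led in members by Jchain in aged A and by Cd79b in the other pools, with Ms4a1 at 0 UMIs in members of all 4 pools. The T and innate lymphoid genes summed to 35.7, 52.0, 53.4 and 46.3 CPM, against 65.5, 82.3, 92.3 and 74.2 CPM. These last 3 sums were lower in members than in other cells of every pool. The other cells include the mitotic cells. In mitotic cells the basophil and mast cell genes summed to 4658, 5444, 2631 and 740 CPM, above members in every pool. Whether members also lie below other cells without the mitotic cells was not tested. Immediate early genes, which can be induced by tissue handling, summed to 1130, 381, 2767 and 659 CPM and were highest in aged A. The part of these genes in the results below was not tested.

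Members also differed among themselves in how many mitosis genes they held. Of the 1259, 264 (20.97%) held 0 of the 10 mitosis genes, 687 (54.6%) held 1 to 2 and 308 (24.5%) held 3 to 4. Rrm2, the ribonucleotide reductase subunit made in S phase, stood at 23.8, 9.48, 34.5 and 40.6 CPM in members with 0 mitosis genes. It stood at 63.4, 66.0, 129 and 103 CPM with 1 to 2 mitosis genes, and at 181, 179, 368 and 235 CPM with 3 to 4. The order was the same in every pool. Tk1, the thymidine kinase, went from 39.6, 44.2, 57.4 and 82.7 CPM with 0 to 192, 287, 277 and 278 CPM with 3 to 4 mitosis genes. The histone variant gene H2afz went from 1619, 1808, 1628 and 1809 CPM to 2680, 3101, 3114 and 3483 CPM. Other genes ran the opposite way or stayed level. Ccnd2 went from 416, 447, 359 and 475 CPM to 331, 310, 232 and 236 CPM, and Procr from 52.1, 55.3, 80.4 and 78.4 CPM to 31.9, 24.5, 42.8 and 50.2 CPM. Mcm6 stood at 378, 302, 356 and 244 CPM with 0 and at 436, 263, 388 and 204 CPM with 3 to 4 mitosis genes, with no common direction. Median UMI counts rose along the same groups, in young A from 9080.5 over 10055 to 11931.

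**Figure D3:**
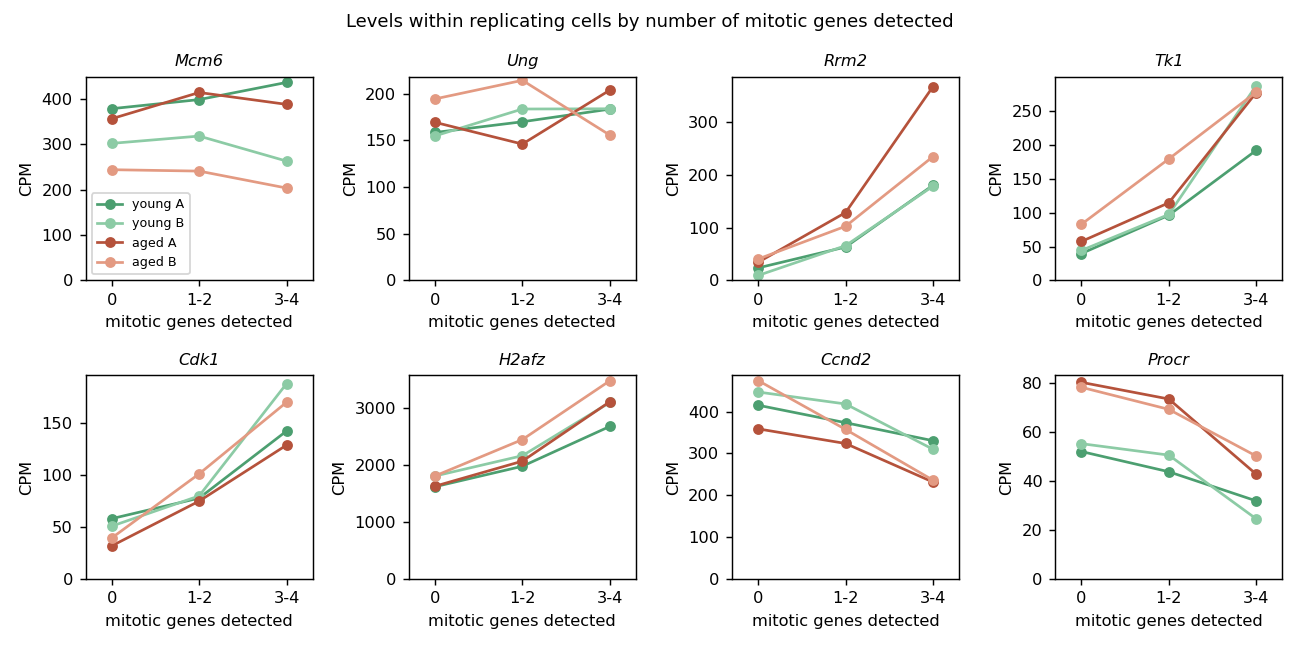
Level (CPM) of 8 genes in members grouped by how many of the 10 mitosis genes they held (0, 1 to 2, 3 to 4), one line per pool. Rrm2, Tk1 and H2afz are higher with more mitosis genes in every pool, and Ccnd2 and Procr are lower.

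Phase calls by a pairwise classifier (cyclone), which was trained on other cells, went against the name of these cells. It called 97.1%, 96.6%, 97.7% and 95.3% of members as G1, and 2.39%, 3.44%, 1.69% and 4.36% as S. Of mitotic cells it called 67.7%, 64.1%, 64.1% and 70.7% as G2/M. The median S score of members, between 0 and 1, was 0.480, 0.460, 0.238 and 0.450, against 0.340, 0.338, 0.146 and 0.252 in cells that were neither members nor mitotic. The score was thus higher in members in every pool. Transcripts of replication genes begin to accumulate before S phase, and the rule cannot tell late G1 from early S phase.

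Gene expression in members was then compared between aged and young pools on summed counts, which asks whether replicating cells carry the age differences seen in the whole compartment. Of 10319 genes tested, 48 (0.465%) rose and 3 (0.0291%) fell with age at an adjusted p of 0.05 (edgeR quasi-likelihood test, platform as block, Benjamini-Hochberg). In the other kept cells 170 of 13456 genes rose (1.26%) and 54 fell (0.401%), and in mitotic cells 70 of 10187 rose (0.687%) and 28 fell (0.275%). Of the 51 genes called in members, 47 were also called in the other cells and 43 in mitotic cells. The classes hold different numbers of UMIs, so their counts of calls are not compared. In bulk sums, fewer cells of a type and less RNA per cell cannot be told apart. The calls rest on the block, since 0 genes were called without it (edgeR, with 289 at an unadjusted p under 0.05), and DESeq2 with the block called 34. Fits with 1 pool left out allow no block, and called 99 genes without young A, 37 without young B, 0 without aged A and 0 without aged B (edgeR, with 340 and 314 at an unadjusted p under 0.05 in the last ones).

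The rise was led by genes barely detected in young members. Matn4, which encodes the matrix protein matrilin 4 (chr2:164389393-164405160), was at 0.510, 0.338, 31.3 and 63.1 CPM in members. It rose by a log2 fold change of 6.38 ± 0.42 (SE, edgeR quasi-likelihood adjusted p = 0.000591). Its young members held 4 UMIs in all, and the ratio of summed levels was 114 with a counting interval of 44.0 to 422. Clca3a1, a chloride channel accessory gene, was at 1.02, 1.35, 29.0 and 42.1 CPM (log2 fold change 4.79 ± 0.36, adjusted p = 0.00106). Gpx8, a peroxidase of the endoplasmic reticulum, was at 0.170, 1.01, 10.4 and 18.1 CPM (4.66 ± 0.56, adjusted p = 0.0108). Sbspon was at 0.340, 0, 6.96 and 37.8 CPM, with 2 UMIs in all young members, and its ratio of summed levels was 118 with a counting interval of 32.0 to 984. The young and aged pools did not overlap for any of these.
Igha, the constant region of IgA made by plasma cells, was at 4.42, 0, 197 and 3.94 CPM, and Jchain, which joins IgA and IgM, at 7.31, 1.01, 96.3 and 4.60 CPM. Both were called as higher in aged cells (Igha 5.40 ± 0.35, adjusted p = 0.000591 and Jchain 3.39 ± 0.37, adjusted p = 0.00714, edgeR quasi-likelihood test), but their levels overlapped between the ages and stood out in aged A alone. An Igha UMI was found in 81.9% of members of aged A and in 69.2% of its other cells. No member cell of that pool held more than 8 Igha UMIs, and 81.9% is far above the 4.36% of aged B.

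Of 16 genes that the study had named for an age difference, a list chosen on these samples and so not independent evidence, 4 rose in members, where 0.465% of all genes tested did. Nupr1, a stress-induced chromatin protein (chr7:126623249-126630861), was at 9.68 and 16.5 CPM in young and 166 and 258 CPM in aged members (log2 fold change 3.97 ± 0.21, edgeR quasi-likelihood adjusted p = 0.000427). Clu, the secreted chaperone clusterin (chr14:65968483-65981547), was at 5.44, 5.40, 84.1 and 153 CPM (4.28 ± 0.28, adjusted p = 0.000591). Selp, the adhesion molecule P-selectin, was at 3.57, 5.06, 56.3 and 47.0 CPM (3.55 ± 0.29, adjusted p = 0.00156). Vwf, which encodes von Willebrand factor, was at 5.78, 5.40, 31.3 and 47.0 CPM (2.69 ± 0.30, adjusted p = 0.00737). In all 4 genes each aged pool stood above both young pools.

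Other genes that rose in members are given as examples chosen after their values were seen. The metallothioneins Mt1 and Mt2, which bind heavy metals, rose by 2.16 and 3.404 on the log2 scale, with Mt1 at 68.6, 72.6, 259 and 416 CPM. Of class II antigen presentation, Cd74, H2-Aa and H2-Eb1 rose by 1.43, 1.64 and 2.19, with H2-Aa at 35.3, 53.0, 99.8 and 197 CPM. Aldh1a1, a retinaldehyde dehydrogenase, was at 18.7, 16.9, 91.1 and 127 CPM, and Sult1a1, a sulfotransferase, at 7.31, 14.5, 94.6 and 124 CPM. Dusp1, an immediate early phosphatase, was at 47.7, 10.8, 256 and 34.5 CPM (log2 fold change 2.05 ± 0.23, edgeR quasi-likelihood adjusted p = 0.00737), so aged B lay between the young pools.
The long noncoding RNA Meg3 (chr12:109541001-109571726) was at 6.12 and 12.8 CPM in young and 52.8 and 86.1 CPM in aged members (2.86 ± 0.24, adjusted p = 0.00157). No gene family was tested.

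The genes that fell in aged members were Slc16a11, Socs2 and Ebi3. Slc16a11, a monocarboxylate transporter, was at 16.5 and 11.5 CPM in young members and at 0.580 and 0.986 CPM in aged members, which held 4 UMIs in all (ratio of young to aged levels 17.6, counting interval 6.73 to 65.7, log2 fold change -4.0 ± 0.54, edgeR quasi-likelihood adjusted p = 0.0200). Socs2, a brake on cytokine receptor signalling, was at 26.8, 27.0, 6.96 and 2.63 CPM (-2.66 ± 0.39, adjusted p = 0.0300). Ebi3, a subunit shared by several interleukins (chr17:55952640-55957022), was at 42.8, 44.2, 13.3 and 12.2 CPM (-1.83 ± 0.24, adjusted p = 0.0187). Neither aged pool overlapped the young pools in these 3 genes. None of the 3 was called when members were chosen with at least 7 replication genes, and DESeq2 called Slc16a11 and Socs2 and not Ebi3.

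**Figure D4:**
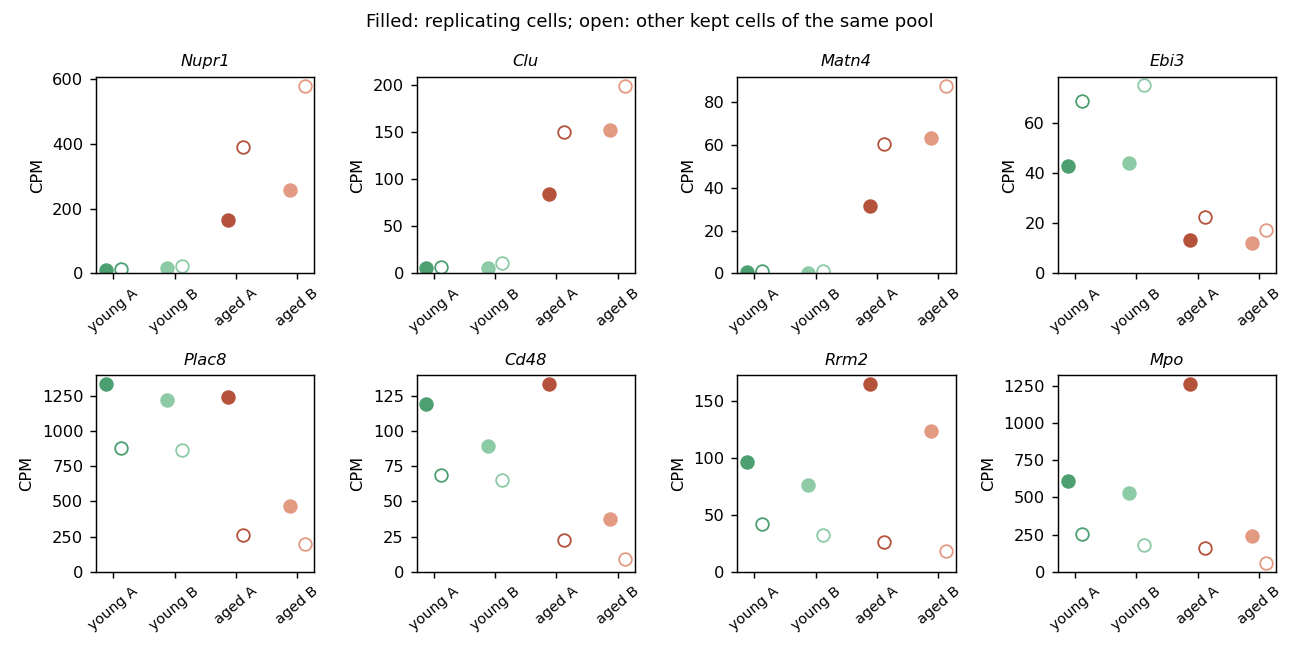
Level (CPM) of 8 genes named in the text in replicating cells (members, filled points) and in the other kept cells (open points), by pool. In members Nupr1 is at 9.68 and 16.5 CPM in young and 166 and 258 CPM in aged pools, and Ebi3 at 42.8 and 44.2 against 13.3 and 12.2 CPM.

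No gene of the replication program was called between aged and young members. The rule required 8 or more replication genes in members of both ages, so a level program among members was largely fixed by it, and nothing is read from its contrast with the other classes. Of the 98 genes in the 5 replication lists, 0 were called by edgeR, 2 had an unadjusted p under 0.05, and DESeq2 called 0. Their median log2 fold change was 0.01 in members, and 0.01 over all genes tested. The same 98 genes had a median of -0.45 in the other kept cells, where 0 were called and 43 had an unadjusted p under 0.05, and of -0.13 in mitotic cells, where 0 were called and 4 had one. The 12 HSC genes had 0 called by edgeR or DESeq2, 5 at an unadjusted p under 0.05 in edgeR, and a median of 0.43. The 11 progenitor genes had 0 called by either tool, 4 at an unadjusted p under 0.05, and a median of -0.57. Of G1/S genes 0 of 23 were called by either tool and 2 had an unadjusted p under 0.05. Ccnd1, an early G1 cyclin, was at 34.3, 32.4, 67.3 and 73.0 CPM (log2 fold change 1.01 ± 0.21, edgeR quasi-likelihood adjusted p = 0.122). Interferon genes had 0 called of 9 tested by either tool, 2 of them at an unadjusted p under 0.05, and ribosome biogenesis genes 0 of 15, with 0 at an unadjusted p under 0.05.

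Whether age differences differed between members and the other cells of the same pools was tested directly, with a class by age term and the pool as block. Of 12678 genes, 220 (1.74%) had a higher and 37 (0.292%) a lower aged-over-young change in members (edgeR quasi-likelihood test, adjusted p of 0.05). DESeq2 called 97 genes in all, and edgeR without the block called 0 (116 at an unadjusted p under 0.05). The fit shares information on spread among genes. Its SEs and p values for a single gene can thus understate the spread between the 2 pools of an age. All 11 replication genes and 5 of the 10 mitosis genes of the rule were among the 220. In members of both ages, the rule sets a minimum number of detected replication genes and an upper limit on detected mitosis genes. Both gene sets thus chose the members, so nothing is read from either set. Other genes of the replication program are tied to this choice. Of the 98 genes in the replication lists 36 were called higher, with a median of 0.45, against -0.01 over all genes tested. The count was 24 by DESeq2, 17 among cells of 6000 to 12000 UMIs and 17 when mitotic cells were left out of the other cells. Rrm2 (chr12:24708241-24714146) was at 96.2, 75.6, 165 and 123 CPM in members and 42.1, 32.4, 26.0 and 18.1 CPM in other cells. The difference between its age changes was 1.47 ± 0.14. For Tk1 the difference was 1.11 ± 0.14. Because the rule ties this program to the choice of members, these counts and differences are descriptions and not evidence of an age effect.

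Progenitor genes, which the rule did not use, also differed. Of 11 listed, 7 had a higher aged-over-young change in members and 0 a lower one, where 1.74% and 0.292% of all genes tested had. The count of higher ones was 3 by DESeq2 and 3 without aged A. Plac8, a gene of multipotent and myeloid progenitors (chr5:100553725-100572245), was at 1341, 1222, 1245 and 471 CPM in members, against 878, 867, 261 and 195 CPM in other cells. The difference between its age changes was 1.18 ± 0.14 (edgeR quasi-likelihood adjusted p = 6.35e-15). Cd48, a surface marker of progenitors that HSCs lack (chr1:171682009-171705258), was at 119, 89.1, 133 and 37.5 CPM in members and 68.7, 65.1, 22.3 and 9.03 CPM in other cells (1.68 ± 0.15, adjusted p = 3.34e-24). Cd34 was at 302, 259, 203 and 93.0 CPM in members and 286, 229, 109 and 57.8 CPM in other cells (0.63 ± 0.14, adjusted p = 0.000356). In the other cells each aged pool had less of all 3 than either young pool. For Plac8 and Cd48 in members, aged A was within or above the young range and aged B below it. The makeup of the other cells also differed with age: the HSC set held 73.1%, 69.8%, 88.5% and 87.0% of them. It held 69.4%, 61.1%, 70.1% and 74.5% of members. The part of this makeup in the progenitor contrast was not tested.
Of 7 neutrophil genes tested, 6 were called higher (1.74% of all genes tested), against 2 by DESeq2 and 4 without aged A. Mpo, the myeloperoxidase of neutrophil granules, was at 609, 533, 1262 and 237 CPM in members and 252, 183, 157 and 55.7 CPM in other cells (1.14 ± 0.13, adjusted p = 1.26e-14), with aged A the highest and aged B the lowest among members. Without aged A the difference for Elane, another granule protease, was -0.07.

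A smaller group had a lower aged-over-young change in members. Nupr1 rose with age in both classes, by 3.97 in members and 4.75 in other cells, and the difference of -0.81 ± 0.20 passed the test (edgeR quasi-likelihood adjusted p = 0.00327), though not when either young pool was left out (adjusted p = 0.289 without A and 0.393 without B). Mt1 rose by 2.16 in members and 3.19 in the others (difference -1.01 ± 0.14, adjusted p = 4.83e-10). Over all genes tested 0.292% were called lower. Of HSC genes 1 of 12 was, Ly6a at -0.54 ± 0.14 (adjusted p = 0.00867). Of 12 immediate early genes 2 were lower, Jun (-0.51 ± 0.14, adjusted p = 0.0121) and Jund. Jun was at 359, 114, 637 and 218 CPM in members and 458, 146, 1163 and 374 CPM in other cells, so both classes were highest in aged A. Meg3 went the opposite way: at 63.7, 78.0, 193 and 183 CPM in other cells, its age change was 1.57 ± 0.20 larger in members (adjusted p = 3.48e-12), but 0.47 among cells of 6000 to 12000 UMIs (adjusted p = 0.538) and not called by DESeq2 (adjusted p = 0.202).

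**Figure D5:**
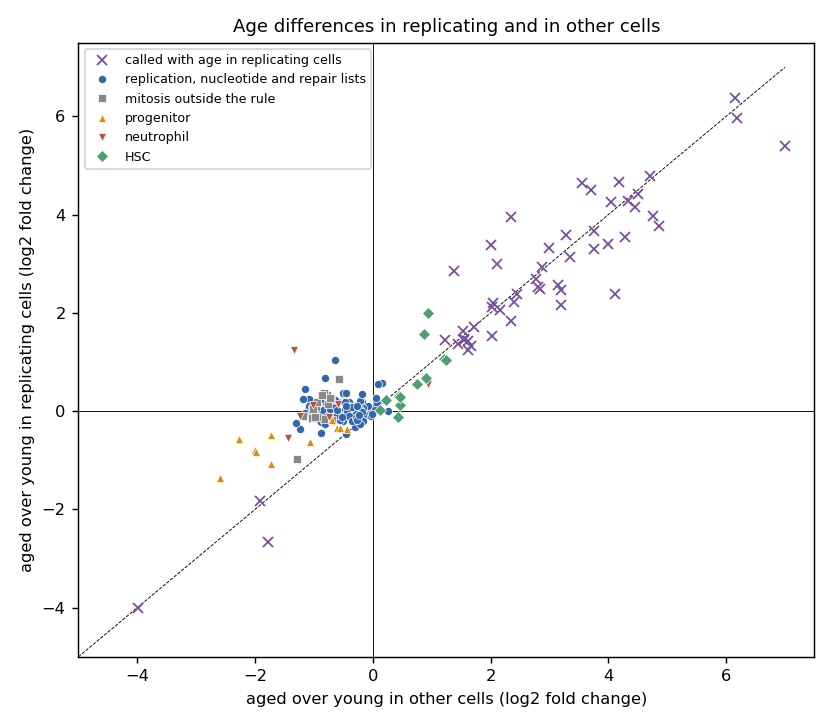
Aged-over-young log2 fold change in replicating cells (vertical axis) against that in the other kept cells (horizontal axis) for listed and named genes, with the line of equality. Most progenitor genes lie above the line, such as Plac8 at -0.80 against -1.99, and Nupr1 lies below it at 3.97 against 4.75. Most replication genes also lie above it, such as Rrm2 at 0.68 against -0.81. The rule ties them to the members, so nothing is read from their position.

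Several of the largest differences rested on few cells. Prg2, a granule protein of eosinophils, had a difference of 7.93, and 385 of its 488 UMIs in members of aged A were in 1 cell. Prg3 had 7.57, with 42 of 62 UMIs of that pool in 1 cell, and Spp1 had 4.79, with 15 of 18 UMIs of aged B in 1 cell. Ms4a4c (3.34) had 8 UMIs in aged B, all in 1 cell, and for Ccr2 (3.30) the top cell of aged A held 8 of 20 UMIs. On the lower side, 83 of the 85 Ly6d UMIs of young A were in 1 cell. Except for Ccr2, most UMIs of each named pool thus came from 1 cell.

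Against the mitotic cells, members differed in few age changes. Of 10803 genes, 18 (0.167%) had a higher and 4 (0.037%) a lower aged-over-young change in members (edgeR quasi-likelihood test, adjusted p of 0.05), and DESeq2 called 0, with 66 at an unadjusted p under 0.05. The limit given above on SEs and p values of single genes holds here too. Lineage genes led the lower side. Pf4, a platelet chemokine, was at 227, 305, 230 and 592 CPM in members and 183, 205, 643 and 932 CPM in mitotic cells (-1.40 ± 0.12, adjusted p = 3.45e-14). Car1, the erythroid carbonic anhydrase, was at 245, 148, 162 and 128 CPM in members and 241, 164, 514 and 197 CPM in mitotic cells (-1.08 ± 0.14, adjusted p = 1.38e-07). Among mitotic cells both genes were highest in an aged pool, Pf4 in B and Car1 in A, and each aged pool had less of them in members than in mitotic cells. On the higher side were Meg3 (1.64 ± 0.29, adjusted p = 0.000491), Irf8, a factor of monocyte and dendritic cell fate (1.51 ± 0.29, adjusted p = 0.00143), and Cd48 (0.87 ± 0.17, adjusted p = 0.00143). The immediate early genes Fos, Jun and Junb were also called higher, at 0.69, 0.67 and 0.72. Of the 98 replication genes 2 were called, Rrm2 (0.74 ± 0.13) and Ung, and nothing is read from them, since the rule ties this program to the members.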

How the data were processed

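The authors deposited UMI counts for each gene in each barcode, not normalized, made from 10x Chromium 3′ libraries (chemistry version 2, target 4000 cells) with Cell Ranger 2.2.0 on mm10, per the labels and the submitters' processing notes. Which annotation release was used was not given in the sources used here. Pools were grouped by title and source name. In young B and aged A a free-text field names the opposite age, and that field was not followed. Replicates are pools of separate mice, 2 per age.

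Cells over 2 SD from the pool's mean log UMI count were dropped, the filter stated in the study, which kept 5189, 2244, 3328 and 4154 of 5431, 2337, 3467 and 4331 barcodes in young A, young B, aged A and aged B. The study states the same kept numbers. No doublet caller was run. Of 651 removed barcodes, 640 were above the range. Counts were summed per pool and class and tested with edgeR 4.0.16 (quasi-likelihood, TMM, filterByExpr, Benjamini-Hochberg at 0.05), with platform as block between ages and pool as block for class by age. DESeq2 1.42.0 was the alternative. The SE is the log2 fold change divided by the square root of F. It comes from a fit that shares spread among genes and does not measure the spread between pools for that gene alone. Platform pairs the pools per the methods: deviations of young and aged members with the same letter correlated at 0.511 over 10319 genes. A level is CPM of summed counts, and differences between classes use log2(CPM + 1). Phases were called with cyclone (scran 1.30.0, 1000 iterations), which was trained on other cells. Fits were tested on simulated data.

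Gene coordinates are from GENCODE vM21, promoter windows from RefSeq. The text names the genes of the rule, the 10 genes outside it with the largest smallest difference over pools, up to 5 called genes of greatest change per direction and test, and listed genes. The rule for members and the gene lists were chosen with earlier results of these data known, so no list is independent support. Other genes were named after their values were seen. Of the 10 genes outside the rule, 1 is not reported here. The alternatives were DESeq2, no filter on low counts, no block, at least 7 or 9 replication genes, thinning to 3000 UMIs, a window of 6000 to 12000 UMIs, cells over 1 SD above the mean left out, and leaving out each pool. Some results also had no limit on mitosis genes, no filter on total UMI, smaller marker sets, a class by platform term, or mitotic cells left out of the other cells.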

Additional observations from a re-analysis of the deposited data

Results flagged for a closer look

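The aged-over-young change of 257 genes differed between replicating and other kept cells, and that of 22 genes between replicating and mitotic cells, in each case by edgeR's quasi-likelihood test of the class by age term. Among the genes of the first comparison with the largest values, log2 differences were higher in replicating cells for Prg2 (7.93), Prg3 (7.57), Spp1 (4.79), Ms4a4c (3.34) and Ccr2 (3.30). They were lower for Ly6d (-3.41), Gbp5 (-2.45), Igha (-1.70), Zfp948 (-1.66) and Prss34 (-1.63). The signs of Igha and Prss34 turned under some alternatives, as given below. In the second comparison they were higher for Id1 (1.78), Prg2 (1.74), Meg3 (1.64), Irf8 (1.51) and Id2 (1.31), and lower for Pf4 (-1.40), Car1 (-1.08), Prss34 (-1.04) and Elane (-0.96). Both comparisons use the same sums of replicating cells, and of the 488 Prg2 UMIs in those of aged A, 385 were in 1 cell. Prss34 stood at 782, 763, 266 and 9.53 CPM in replicating cells of young A, young B, aged A and aged B, and at 1142, 1210, 474 and 363 CPM in the other cells.

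Of the barcodes removed by the UMI filter, 144 met the rule for replicating cells, 61 in young A, 26 in young B, 28 in aged A and 29 in aged B. They enter no comparison, and doublets among them were not tested.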

How the results depend on the processing

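The difference in the share of replicating cells kept its direction in every setting tried, from -0.584 (thinned to 3000 UMIs) to -7.25 points (no limit on mitosis genes), and from -4.47 to -5.77 with each pool left out. Within marker sets, the difference turned to 1.01 for erythroid cells after thinning and to 4.29 for them among cells of 6000 to 12000 UMIs, a setting chosen after seeing the data. It also turned, with smaller marker sets, to -5.36 for basophil and mast cells, -4.81 for T and innate lymphoid cells and -4.53 for B and plasma cells. In the T and innate lymphoid set and the B and plasma set the share was 0 in every pool after thinning. In the B and plasma set it was also 0 in that window, and among all kept cells of every pool other than aged A. No replicating cell was left in the sets in these settings.

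Genes called with age in replicating cells numbered 51, and 269 with no low-count filter, 22 with at least 7 replication genes, 30 without cells over 1 SD, 0 of 1520 tested after thinning (edgeR, 46 at an unadjusted p under 0.05) and 0 to 99 with each pool left out. Age changes that differed from other cells numbered 257, and 97 by DESeq2, 165 among cells of 6000 to 12000 UMIs, 126 without mitotic cells among the others, and 123 to 346 with each pool left out. Those that differed from mitotic cells numbered 22, and 0 by DESeq2 and 15 to 61 with each pool left out. Genes higher in replicating than in other cells numbered 101, and 267 when mitotic cells were left out, a setting chosen after seeing the data. Fits without a pool had no platform block and assumed that the lone pool varied like the others. Without the replicate block, 0 genes were called with age and 0 for the difference from other cells (edgeR, 289 and 116 at an unadjusted p under 0.05). The causes were not tested.

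Single genes turned sign in the difference from other cells as follows: Mcpt8 to 0.208 and Prss34 to 0.0677 with at least 7 replication genes. With each pool left out, Elane ranged from -0.066 to 1.31, Ms4a3 from -0.0134 to 1.46, Mcpt8 from -2.85 to 0.424 and Igha from -4.26 to 2.68. With 2 pools per age and 177 replicating cells in the smallest pool, low genes rest on few UMIs.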
